A study of Mus musculus with 2 samples.

Results

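Macrophages made up a small share of the cells cultured from the stromal vascular fraction of mouse adipose tissue, 144 of 29744 kept cells (0.484%, 95% interval 0.408 to 0.570) from inguinal white adipose tissue (iWAT) and 235 of 28215 (0.833%, 0.730 to 0.946) from interscapular brown adipose tissue (iBAT), or 379 of 57959 (0.654%) in all. A cell was counted as a macrophage when it held at least 3 unique molecular identifiers (UMIs, the molecule counts of the assay) of C1qa, C1qb and C1qc together, at least 1 UMI of Tyrobp or Ptprc, and less than 1% of its UMIs in Col1a1 and Col1a2. The C1q genes encode the subunits of complement C1q, Tyrobp encodes the adaptor DAP12, Ptprc encodes the leukocyte antigen CD45, and the collagen limit is set against fibroblast-like cells, although 22.6% of the other kept cells in iWAT and 61.3% in iBAT also lay under it. Cells entered this count when they had over 200 and under 7500 detected genes and under 30% mitochondrial UMIs. Because the cells were selected on these genes, their contrast with the other cells of the same library is a description and carries no test.

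The cells came from wild-type C57BL/6N mice aged 8 to 12 weeks per the labels. The tissue was pooled and collagenase-digested, and the stromal cells were grown in high-glucose medium to 80% confluency. Per depot, 4 cultures were tagged with antibodies and merged, 1 untreated and 1 each given FGF1, FGF2 or FGF8 at 5.5 nM for 48 hours, and 1 whole-transcriptome library was made on a microwell system (BD Rhapsody). These treatments follow the sample labels, whereas the study's methods name vehicle, FGF1 and FGF2 only. The number of mice and their sex are not given in the sources used here, and the tables used here link no cell to its tag, so every value below is over the merged untreated and FGF-treated cells. With 1 library per depot there is no replicate check, and each bracket gives a 95% interval that covers counting error only. Depot cannot be told apart from sex, library, depth or treatment mix: Xist, the RNA of X inactivation, stood at 516 counts per 1e6 UMIs (CPM) in iWAT and at 0 UMIs in iBAT macrophages, and the Y-linked Ddx3y at 0 UMIs and 86.2 CPM.

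As background, adipose tissue macrophages clear dying adipocytes, take up lipid and iron, secrete chemokines and growth factors, and depend on colony-stimulating factor 1 (CSF1), which stromal cells supply and macrophages receive through the receptor CSF1R. Their identity is set by the transcription factor PU.1, encoded by Spi1. States often told apart in fat are resident cells that bear Mrc1, Lyve1 and Timd4, recruited monocyte-derived cells, and lipid-associated cells that bear Trem2, Gpnmb and Fabp5.

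Promoters of macrophage genes are shown here because PU.1 binds a purine-rich motif. The 250 bases before the start of the canonical transcript of each gene were searched for the 7 letters AGGAAGT on either strand. The letters were found in 8 of 19 leading genes that matched the annotation by symbol (42.1%), and Fcrls was not matched. They were found in 7 of 20 macrophage identity genes (35%) and in 0 of 10 stromal genes, against 1550 of 21735 promoters of all protein-coding genes (7.13%). The leading genes are those with the highest ratio of macrophages over other cells in both depots. They include C1qa, C1qb, C1qc and Tyrobp, on which the cells were selected and which are macrophage identity genes as well. C1qb and C1qc are among the matches of both sets, and the rule gene Ptprc is among those of the identity set. These shares are thus a description of overlapping sets that the selection partly fixed. The 3 C1q genes lie side by side on chromosome 4 and are shown with Fcer1g, a macrophage identity gene that is not a leading gene. Fcer1g encodes the Fc receptor gamma chain that pairs with activating receptors. Each line gives the 100 bases that end at the gene start on the minus strand of GRCm39, read 5′ to 3′, and the capitals mark the motif, which here lies on the opposite strand and so reads as its reverse complement ACTTCCT.
C1qa, chr4:136626162-136626261: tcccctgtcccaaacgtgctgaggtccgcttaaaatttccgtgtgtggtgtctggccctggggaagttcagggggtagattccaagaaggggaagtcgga
C1qb, chr4:136613512-136613611: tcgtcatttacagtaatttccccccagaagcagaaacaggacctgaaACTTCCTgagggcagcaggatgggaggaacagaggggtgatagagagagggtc
C1qc, chr4:136620377-136620476: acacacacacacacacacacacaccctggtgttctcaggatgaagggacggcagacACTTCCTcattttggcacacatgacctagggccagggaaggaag
Fcer1g, chr1:171062220-171062319: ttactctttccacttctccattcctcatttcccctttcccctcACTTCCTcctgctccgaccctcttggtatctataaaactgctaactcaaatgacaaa
C1qb, C1qc and Fcer1g each held a match in this stretch and C1qa held none. The stretches were chosen after the matches were seen, and a match is a run of letters, not a measured binding site.

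Library depth differed between depots and touches every comparison between them. Macrophages held a median of 11361 UMIs per cell in iWAT (6014 to 26897) and 23828 in iBAT (11143 to 51387), and the other kept cells 16237 and 27266. In both depots the macrophages were thus the shallower cells, with a median of 3640.5 and 5186 genes against 4427 and 5767. Summed UMIs were 1736303 for the iWAT and 5879314 for the iBAT macrophages. The C1q sum reached a median of 65 UMIs per macrophage in iWAT (6 to 211) and 67 in iBAT (3 to 240), whereas any C1q UMI was seen in 1.00% and 1.72% of the other cells. Under 10 C1q UMIs were held by 1 iWAT and 5 iBAT macrophages, and 4 and 9 cells met the limits on Tyrobp or Ptprc and on collagen but held only 1 or 2 C1q UMIs. The collagen share was at most 0.908% in iWAT and 0.971% in iBAT macrophages, and 8 cell barcodes occurred in both libraries.

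Some macrophages also carried stromal RNA. A share of 0.2% or more of UMIs in 8 stromal genes that the selection did not use (Col3a1, Dcn, Lum, Pdgfra, Pdgfrb, Sparc, Thy1 and Postn), a limit set after the data were seen, was reached by 10 of 144 iWAT and 67 of 235 iBAT macrophages. Those cells were deep, with a median of 19848 UMIs in iWAT and 33909 in iBAT against 11319 and 20726 in the rest, and the part of wells that held a stromal cell as well was not tested. Values without them stand beside several results below, under the name stroma-poor macrophages (134 iWAT and 168 iBAT cells, 0.451% and 0.595% of kept cells).

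**Figure D1:**
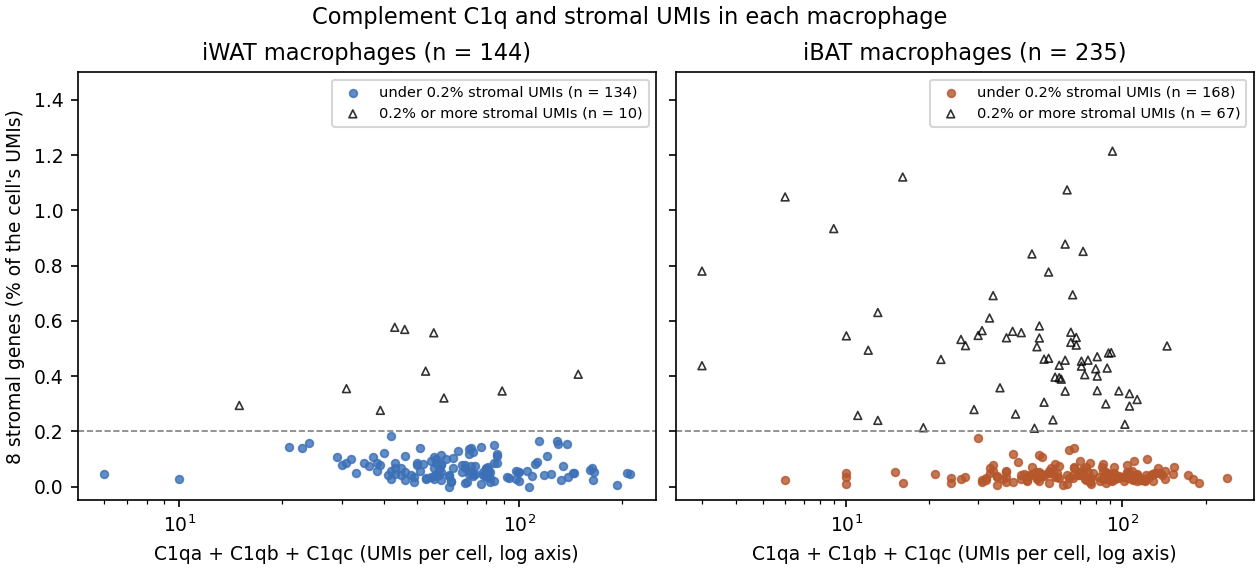
Each point is 1 macrophage, with its summed C1qa, C1qb and C1qc UMIs on a log axis and the share of its UMIs in 8 stromal genes (%) on a linear axis, iWAT left and iBAT right. Filled points lie under 0.2% stromal UMIs and open triangles at or over it, 10 of 144 cells in iWAT and 67 of 235 in iBAT.

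The stromal genes themselves were low but not absent. The 10 listed stromal genes are the 8 above plus Col1a1 and Col1a2. They summed to 2565 CPM in iWAT macrophages against 34676 in the other cells, and to 4031 against 19463 in iBAT. Because the rule limits Col1a1 and Col1a2, part of this gap follows from the selection. Stroma-poor macrophages stood at 1800.4 and 901 CPM, a drop that follows from leaving out cells by 8 of these same genes. Col1a1, a fibrillar collagen gene of the selection rule, stood at 1017 CPM in iWAT and 1078 in iBAT macrophages, and at 775 and 277 in the stroma-poor ones.

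In iWAT, 4259 genes had at least 50 CPM in macrophages or other cells and are called tested below, of which 421 (9.88%) were at least 4-fold higher in macrophages and 397 (9.32%) at least 4-fold lower. The corresponding counts in iBAT were 300 (7.38%) and 183 (4.5%) of 4067. Median-of-ratios scaling moved the median log2 ratio of all genes by 0.15 in iWAT and by 0.16 in iBAT, and it moved the iBAT counts to 323 higher and 112 lower. Among stroma-poor iBAT macrophages 393 genes were higher and 489 lower, so leaving out the stroma-bearing cells raised the count of lower genes. Many genes of the lists below reached 50 CPM in the macrophages alone, where they are high, so counts of list genes are descriptions to be read beside these shares. All 20 macrophage identity genes were at least 4-fold higher in iWAT, at a median log2 ratio of 10.82 against -0.15 over all genes, and all 19 that were tested in iBAT, at 10.08 against -0.16. Their summed level was 33068 CPM against 34.2 in iWAT and 24649.6 against 50.1 in iBAT. This list holds the 5 genes that selected the cells, and its genes were tested through their level in macrophages. Markers outside the selection rule, such as Lyz2, Csf1r and Adgre1, follow with their values.

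Adgre1, which encodes the surface protein F4/80, stood at 345 CPM in iWAT and 349 in iBAT macrophages, and at 0.0960 and 0.243 in the other cells. Lyz2, which encodes lysozyme, reached 12753 CPM (12586 to 12922) in iWAT and 11587 CPM (11500.0 to 11674) in iBAT macrophages, against 3.71 and 10.7 CPM in the other cells. Ctss, a lysosomal cysteine protease, stood at 3519 CPM (3431 to 3608) and 2833 CPM (2790.1 to 2876). Adgre1, Lyz2 and Ctss were close between the depots and near background outside the macrophages. Of the 20 macrophage identity genes, 15 were higher in iWAT macrophages and 5 in iBAT. Their median log2 ratio of iBAT over iWAT was -0.44, beside 0.09 over all genes tested, and -0.13 in the stroma-poor macrophages. At least 4-fold higher in iWAT were 2 of the 20, beside 2.81% of all genes. C1qa was at 1470.4 CPM in iWAT and 433 in iBAT, C1qb at 1432 and 869, and C1qc at 3222 and 1527. All 3 C1q genes were thus higher in iWAT, while the median C1q count per cell was nearly equal and the iBAT macrophages held more UMIs per cell. Pf4, the chemokine platelet factor 4, differed most of the 6 markers, at 2571 CPM (2496 to 2648) in iWAT and 251 CPM (238 to 264) in iBAT, against 0.690 and 0.181 in the other cells.

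**Figure D2:**
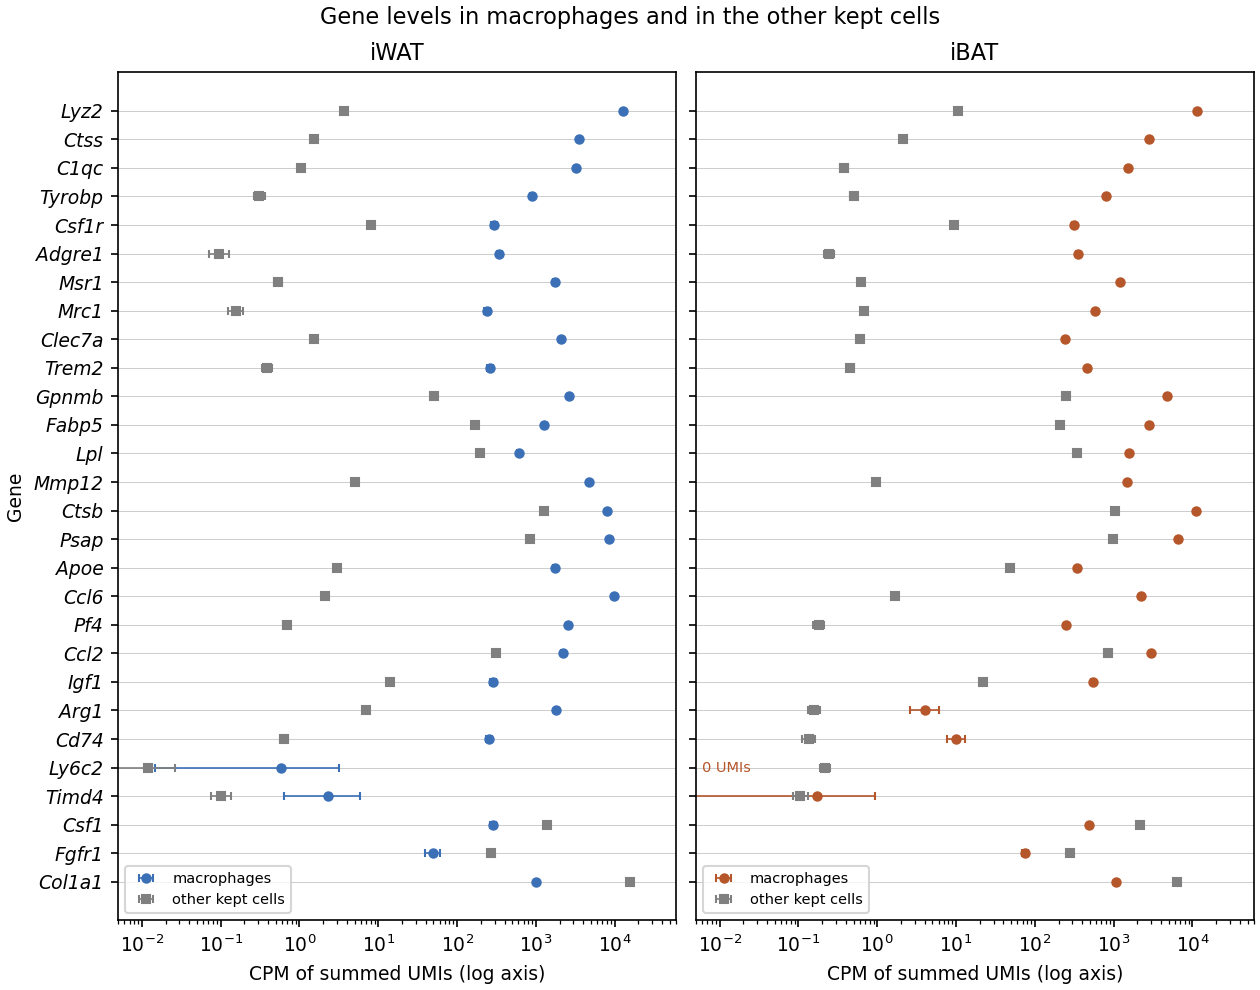
Gene levels in CPM of summed UMIs on a log axis, iWAT left and iBAT right, with coloured circles for macrophages, grey squares for the other kept cells and bars for exact Poisson 95% intervals. Macrophage genes from Lyz2 to Trem2 lie at least 33.2-fold above the other cells, Csf1, Fgfr1 and Col1a1 lie to the left, and Ly6c2 had 0 UMIs in iBAT macrophages.

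The 20 leading genes were C1qa, C1qc, Ms4a6c, Ccl4, Cd300ld, Ccl12, C1qb, Fcrls, Ms4a7, Fcgr2b, Msr1, Bcl2a1b, Rgs1, C5ar1, Rac2, Clec4a2, Sirpb1c, Tyrobp, Gpr65 and Itgam. The cells were selected on C1qa, C1qb, C1qc and Tyrobp, so the high ratios of these genes follow from the rule. Among the 20 are the genes of the inhibitory Fc receptor (Fcgr2b), the class A scavenger receptor (Msr1), the receptor of complement C5a (C5ar1) and the integrin alpha chain CD11b (Itgam). Msr1 stood at 1731 CPM (1669.9 to 1794) in iWAT and 1195 CPM (1168 to 1224) in iBAT macrophages, 3218-fold and 1916-fold above the other cells. C5ar1 differed by 1.13-fold (1.05 to 1.21) between the depots, at 618 and 696 CPM. Its log2 ratio of iBAT over iWAT was 0.17 and ran from 0.08 to 0.51 under the alternative settings described at the end. Reads of Bcl2a1b, Sirpb1c, Ms4a6c and Clec4a2 may be shared with close paralogs, so their levels are uncertain.

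Phagocytic receptors were broadly present. Of 20 listed genes 17 reached 50 CPM in iWAT macrophages and 15 in iBAT, and 16 and 14 of these were at least 4-fold higher than in the other cells, beside 9.88% and 7.38% of all genes tested, the exception in both being Axl, a receptor of apoptotic cells that stromal cells also express. Mertk, its relative in apoptotic cell uptake, stood at 116 CPM in iWAT and 37.8 in iBAT, 34.0-fold and 9.94-fold above the other cells. Clec7a, the beta-glucan receptor dectin-1, was at 2100.4 CPM (2033 to 2169.7) in iWAT and 244 CPM (232 to 257) in iBAT. Itgax, the integrin alpha chain CD11c, went the same way, at 229 and 46.4 CPM. Mrc1, the mannose receptor CD206, went the other way, at 241 CPM (218 to 265) and 575 CPM (556 to 595), and so did Stab1, the scavenger receptor stabilin-1, at 342 and 615 CPM. Fcer1g, whose promoter is shown above, was near equal at 2347 and 2144 CPM.

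Of 16 pattern recognition genes 6 reached 50 CPM in the macrophages of each depot, of which 6 in iWAT and 5 in iBAT were at least 4-fold higher than in the other cells, beside 9.88% and 7.38% of all genes. Clec4n, the fungal lectin dectin-2, was at 454 CPM (423 to 487) and 77.9 CPM (70.9 to 85.4), and Clec4d, a related lectin, went the other way at 189 CPM (169.6 to 211) and 482 CPM (464 to 499.9). Tlr13, which senses bacterial ribosomal RNA, was at 70.3 and 82.0 CPM with 0.0640 and 0.0471 in the other cells. Tlr4, the endotoxin receptor, was only 7.85-fold and 2.75-fold above the other cells, at 85.8 and 54.3 CPM.

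Among the transcription factors, 9 of 15 tested in iWAT and 6 of 12 in iBAT were at least 4-fold higher in macrophages, beside 9.88% and 7.38% of all genes. Spi1 stood at 140.0 CPM (123 to 159) in iWAT and 142 CPM (133 to 152) in iBAT, against 0.0580 and 0.132 CPM in the other cells, and the intervals of the depots overlapped. The gene lies at chr2:90912562-90946101 of GRCm39. Irf8, an interferon regulatory factor of the myeloid lineage, was at 248 and 97.0 CPM, and Ikzf1, a haematopoietic zinc-finger factor, at 92.7 and 58.7. Between depots 0 of 15 factors tested differed 4-fold, near the share of all genes, of which 2.81% were 4-fold higher in iWAT and 1.33% in iBAT. Gata6, the factor of peritoneal cavity macrophages, was at 6.34 and 11.6 CPM, under its 34.9 and 46.7 in the other cells, and Spic, the factor of splenic red pulp macrophages, was at 1.15 and 2.38.

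The growth factor circuit of the lineage was split between the cell types. Csf1r, which encodes the CSF1 receptor, stood at 291 CPM (266 to 317) in iWAT and 314 CPM (300.3 to 329) in iBAT macrophages, against 8.03 and 9.47 CPM in the other cells. Its ligand gene Csf1 was lower in macrophages, at 287 and 486 CPM against 1396 and 2188, and at 198 and 118 CPM in the stroma-poor macrophages. The second ligand of the receptor, Il34, was at 0 UMIs in iWAT and 2.55 CPM in iBAT macrophages. Genes of the receptor for granulocyte-macrophage colony-stimulating factor follow. Csf2ra, the ligand-binding chain, was at 344 and 269.9 CPM, whereas Csf2rb, the common signalling chain, was at 703 CPM (664 to 743) in iWAT and 112 CPM (104 to 121) in iBAT, 6.28-fold (5.71 to 6.91) higher in iWAT. Csf2rb and its near-identical copy Csf2rb2 can share reads, and Csf2, the ligand, was at 1.73 CPM in iWAT and 0 UMIs in iBAT macrophages.

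The 21 listed lysosomal genes summed to 47959.9 CPM in iWAT macrophages against 7185 in the other cells, and to 45304 against 7241 in iBAT. In the stroma-poor macrophages the sums were 50929.5 CPM in iWAT and 54583 in iBAT, so the order of the depots turned around. In each depot 11 of the 21 were at least 4-fold higher, beside 9.88% and 7.38% of all genes, at a median log2 ratio of 2.10 in iWAT and 2.11 in iBAT. Ctsb, the cysteine protease cathepsin B, was at 8067 CPM (7934 to 8202) and 11088 CPM (11003 to 11174), and Psap, the precursor of the saposins that help to degrade sphingolipids, at 8592 CPM (8454 to 8731) and 6539 CPM (6473 to 6604). Both were also well expressed by the other cells, Ctsb at 1274 and 1040.3 CPM and Psap at 845 and 974. Ctsc, the protease that activates granule serine proteases, was 2.79-fold (2.68 to 2.91) higher in iWAT, at 2625 against 939.7 CPM. The median log2 ratio of iBAT over iWAT for the 21 genes was -0.15, beside 0.09 over all genes tested, and -0.02 in the stroma-poor macrophages.

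Genes of iron and heme handling were macrophage-high in 4 of 8 tested in iWAT and 3 of 7 in iBAT, beside 9.88% and 7.38% of all genes. Fth1, the ferritin heavy chain, held the most UMIs of any gene that is neither mitochondrial nor ribosomal in iWAT macrophages, at 21919.6 CPM (21699.9 to 22141) against 1351 CPM in the other cells, and stood at 17942 CPM (17834 to 18051) against 3072 in iBAT. Hmox1, which breaks down heme, was at 1103 and 1455 CPM. Slc11a1, a metal transporter of the phagosome, was at 86.4 and 89.8 CPM, 189-fold and 66.5-fold above the other cells. Cd163, the haemoglobin scavenger receptor, was near its floor at 2.88 and 1.36 CPM.

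The lipid-associated genes were high in both depots, 10 of 16 at least 4-fold higher in iWAT macrophages (median log2 ratio 2.99) and 11 of 16 in iBAT (3.47), beside 9.88% and 7.38% of all genes at medians of -0.15 and -0.16. Trem2, the lipid receptor that signals through DAP12, stood at 260.3 CPM (237 to 285) in iWAT and 459 CPM (442 to 476) in iBAT. Gpnmb, a glycoprotein of lysosome-rich macrophages (chr6:49013426-49047863, GRCm39), was at 2653 CPM (2577 to 2731) and 4823 CPM (4767 to 4879), against 51.5 and 249 CPM in the other cells. Fabp5, a fatty acid carrier, was at 1269 CPM (1216 to 1323) and 2795 CPM (2752 to 2838). These 3 genes were 1.76-fold, 1.82-fold and 2.20-fold higher in iBAT, and in the other cells the corresponding ratios were 1.18, 4.83 and 1.27. They stood above most of their list: of all 17 lipid-associated genes 13 leaned to iBAT and 4 to iWAT, with a median log2 ratio of only 0.20. The same median was 0.27 in the other cells, and 0.38 in the stroma-poor macrophages, so the list as a whole differed little between depots. Lpl, which encodes lipoprotein lipase, was at 617 and 1579 CPM, and Cd36, a fatty acid receptor, at 1004 and 1854. Fabp4, the adipocyte-type fatty acid carrier, differed most, at 15.6 CPM (10.2 to 22.6) in iWAT and 221 CPM (209.6 to 234) in iBAT, while the other cells stood at 38.6 and 126 CPM. Spp1, or osteopontin, was at 7572 and 4419.7 CPM but also at 2081 and 3121 in the other cells.

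Apoe, Abca1 and Abcg1, picked from the cholesterol and lipid list for their role in cholesterol export, were each higher in iWAT macrophages. Apoe, the apolipoprotein that carries cholesterol out of macrophages, was at 1729.5 CPM (1668 to 1793) in iWAT and 347 CPM (332 to 363) in iBAT, 4.98-fold (4.71 to 5.27) higher in iWAT. In the other cells Apoe was higher in iBAT, at 48.1 against 3.04 CPM. Abca1, a cholesterol efflux pump, was 3.81-fold (3.38 to 4.30) higher in iWAT macrophages, at 334 against 87.6 CPM, and Abcg1, a further pump, was 1.82-fold higher. Over the 11 genes of that list that were tested, 6 were higher in iBAT and 5 in iWAT, at a median log2 ratio of 0.11.

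Values of 4 matrix metalloproteinases, which cut extracellular matrix, are given as single genes and not as a list. Mmp12, the macrophage elastase, stood at 4785 CPM (4683 to 4889) in iWAT and 1460.2 CPM (1429 to 1491) in iBAT macrophages. Mmp13, a collagenase, was at 2352 CPM (2281 to 2425) and 80.5 CPM (73.4 to 88.0), 29.2-fold (26.6 to 32.2) higher in iWAT. Mmp9, a gelatinase, was at 476 CPM (444 to 509.9) and 2.04 CPM (1.05 to 3.57), and Mmp8, a further collagenase, at 552 and 24.5 CPM. Mmp8 and Mmp13 were picked after their values were seen.

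Chemokine genes were prominent in both depots. The listed chemokines summed to 21572 CPM in iWAT macrophages against 1672 in the other cells, and to 9912 against 2221 in iBAT. At least 4-fold higher in macrophages were 12 of 15 tested in iWAT and 7 of 12 in iBAT, and 2 were lower in each, beside 9.88% higher and 9.32% lower of all genes in iWAT and 7.38% and 4.5% in iBAT. Ccl6, a myeloid CC chemokine, was at 9839.9 CPM (9693 to 9989) in iWAT and 2198 CPM (2160.0 to 2236) in iBAT. Ccl3 and Ccl4, inflammatory CC chemokines, were 4.12-fold and 2.46-fold higher in iWAT, at 952 against 231 and 817 against 331 CPM. Cxcl2, a neutrophil attractant, was at 418 CPM (388 to 449.7) and 15 CPM (12.0 to 18.4). Among the monocyte attractants, Ccl12 was at 1368 CPM in iWAT and 788 in iBAT, while Ccl2 and Ccl7 were higher in iBAT. Ccl2 was at 2179.9 CPM in iWAT and 2975 in iBAT macrophages, against 308 and 856 in the other cells, and Ccl7 at 1079 and 1877. Of the chemokine receptors, Ccr1 was at 289.7 and 106 CPM, whereas Ccr2, the monocyte receptor of Ccl2, was at 8.64 and 1.53.

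Ppbp, a chemokine usually stored in platelets, was at 944 CPM (899 to 991) in iWAT and 1.70 CPM (0.816 to 3.13) in iBAT macrophages. The other listed platelet genes Itga2b, Gp9 and Gp1bb had 0 UMIs in the iWAT macrophages, which allows up to 1.73 CPM each, and the cell with most Ppbp gave 14.8% of its UMIs.

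The listed inflammatory genes summed to 1185 CPM in iWAT and 207 in iBAT macrophages, and to 671 and 132 in the other cells, so the other cells leaned the same way. Il1a, which encodes interleukin-1 alpha, stood at 363 CPM (335 to 392) in iWAT and 17.5 CPM (14.3 to 21.2) in iBAT, and Nlrp3, the inflammasome sensor, at 289.7 and 81.0 CPM. Il1b was at 65.1 CPM in iWAT, while in iBAT 97.4% of its UMIs came from 1 cell. Tnf, which encodes tumour necrosis factor, was at 40.3 CPM (31.4 to 50.9) and 30.1 CPM (25.8 to 34.9), with intervals that overlapped. Il1rn, the interleukin-1 receptor antagonist, was at 912 and 462 CPM, 385-fold and 10.2-fold above the other cells. Osm, the cytokine oncostatin M, was at 92.7 CPM (79.0 to 108) and 18.9 CPM (15.5 to 22.7), with 0.0380 and 0.0153 CPM in the other cells. Nos2, the inducible nitric oxide synthase, was at 13.2 and 0.170 CPM, and Ptgs2, the inducible cyclooxygenase, was lower than in the other cells, at 147 against 583 CPM in iWAT and 17.7 against 96.3 in iBAT.

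The 11 listed genes of antigen presentation through MHC class II and of costimulation summed to 915 CPM in iWAT and 104 in iBAT macrophages, and to 69.2 and 27.9 in the other cells. The 6 that reached 50 CPM did so in iWAT macrophages only, which fixes their direction. Cd74, the invariant chain, was at 255 CPM (231 to 279) in iWAT and 10 CPM (7.64 to 12.9) in iBAT, H2-Aa, an alpha chain, at 68.0 and 4.08 CPM, and Cd86, a costimulatory ligand, at 130.2 and 12.8. Cells differed widely, since with every cell thinned to 5000 UMIs Cd74 was at 0 in 89 of 144 iWAT macrophages and in 232 of 235 from iBAT.

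Of the listed alternative activation genes 5 reached 50 CPM in iWAT macrophages and 2 in iBAT, and Mrc1, given above, was the one that was higher in iBAT. Arg1, which encodes arginase 1 (chr10:24791118-24803817, GRCm39), was at 1792 CPM (1729.9 to 1856) in iWAT and 4.08 CPM (2.62 to 6.07) in iBAT macrophages, 439-fold (295 to 686) higher in iWAT, and in the other cells it was 43.4-fold higher in iWAT at 6.90 and 0.159 CPM. Arg1 was uneven among the iWAT cells: of 144 macrophages thinned to 5000 UMIs 56 had none, 58 had 5 or more and the highest had 82, whereas 230 of 235 iBAT macrophages had none. Mgl2, a C-type lectin, was at 262 CPM (239 to 287) and 3.06 CPM (1.81 to 4.84), and Ccl24, which draws eosinophils, at 427 CPM (397 to 459) and 0.170 CPM (0.00431 to 0.948). Il4ra, the interleukin-4 receptor, was near equal at 73.7 and 67.7 CPM, and Chil3 had 0 UMIs in macrophages of both depots.

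Genes of resident macrophages split by gene. Of 8 listed genes tested between depots, 6 were higher in iBAT and 2 in iWAT. Their median log2 ratio of iBAT over iWAT was 0.89, and 0.31 in the other cells. The whole list summed to 4288 CPM in iWAT and 3446 in iBAT macrophages, whereas the other cells leaned to iBAT at 89.0 and 423 CPM. Both of the genes higher in iWAT macrophages were so at least 4-fold. The sum thus leaned to iWAT through few genes, while most genes tested were higher in iBAT. Igf1, a growth factor, stood at 285 CPM (261 to 311) in iWAT and 542 CPM (523 to 561) in iBAT, Selenop, a selenium carrier, at 518 and 1023 CPM, and Folr2, a folate receptor, at 117 and 183. F13a1, a coagulation factor subunit, was at 136 CPM (119.7 to 155) and 0.340 CPM (0.0412 to 1.23). The defining resident genes Timd4, Lyve1 and Vsig4 were near or at 0, Timd4 at 2.30 and 0.170 CPM, Lyve1 at 4.03 and 0.170, and Vsig4 at 0 and 1.19. The monocyte gene Ly6c2 was no higher, at 0.576 and 0 CPM.

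Genes of other immune cell types were low among the selected cells. Because the rule requires C1q UMIs, this follows in part from the selection. T cell genes summed to 22.5 CPM in iWAT and 8.16 in iBAT macrophages, B cell genes to 0.576 and 0.340, NK cell genes to 1.15 and 0.510, and neutrophil genes to 7.49 and 3.40. Mast cell, eosinophil and dendritic cell genes summed to 1.15, 13.2 and 5.76 CPM in iWAT and to 0.340, 4.25 and 1.53 in iBAT. Endothelial, Schwann and mural genes summed to 22.5, 5.76 and 0.576 CPM in iWAT and to 17.7, 9.87 and 7.31 in iBAT, where the stroma-poor macrophages held 1.65 CPM of Schwann and 2.74 of mural genes. Acp5, the acid phosphatase of osteoclasts, was at 204 CPM in iWAT and 11.6 in iBAT, while Dcstamp, a fusion protein of osteoclasts, was at 7.49 CPM and 0 UMIs. Epithelial genes, which the iWAT library holds, summed to 270.1 CPM in iWAT macrophages against 583 in the other cells, and 1 cell gave 49.6% of the Krt18 UMIs and 47.0% of the Krt8 UMIs.

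The study asked whether FGFs induce the uncoupling protein UCP1 in preadipocytes, so FGF signalling genes and uncoupling proteins of the macrophages are given here. Of 14 listed FGF signalling genes, 1 of 6 tested in iWAT was at least 4-fold higher in macrophages and 4 were lower. In iBAT 0 of 7 were at least 4-fold higher and 1 was lower. The shares of all genes were 9.88% higher and 9.32% lower in iWAT, and 7.38% and 4.5% in iBAT. The list summed to 463 CPM in iWAT macrophages against 843 in the other cells, and to 508 against 1091 in iBAT. Fgfr1, a receptor of the added FGFs, stood at 49.0 CPM (39.1 to 60.5) in iWAT and 75 CPM (68.2 to 82.3) in iBAT macrophages, against 270.1 and 276 CPM in the other cells, and at 41.5 and 27.7 in the stroma-poor macrophages. Fgf2 was at 33.4 and 44.6 CPM against 252 and 187, and at 19.2 and 9.06 in the stroma-poor macrophages. Ucp1 had 0 UMIs in iWAT macrophages and stood at 0.510 CPM (0.105 to 1.49) in iBAT. Ucp2, the uncoupling protein of immune cells, was high instead, at 1177 CPM (1126 to 1229) and 479 CPM (461 to 497), 22.5-fold and 23.6-fold above the other cells. Of noradrenaline handling genes 1 was tested in iWAT and 2 in iBAT, and Slc6a2, the noradrenaline transporter, had 0 UMIs in the macrophages of both depots.

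Of the interferon-stimulated genes 2 of 12 tested were at least 4-fold higher than in the other cells in iWAT (median log2 ratio 0.53) and 1 of 2 in iBAT (1.20), beside 9.88% and 7.38% of all genes. Of the 25 listed genes 12 reached 50 CPM in iWAT macrophages and 2 in iBAT, so most of the 12 were compared through the iWAT side. All listed genes summed to 2593 CPM in iWAT and 936 in iBAT macrophages, and to 1785 and 813 in the other cells. Rsad2, an antiviral enzyme, reached 142 CPM in iWAT macrophages, but 1 cell gave 64.6% of its UMIs. Ifi27l2a, at 204 and 33.7 CPM, was the further gene past 4-fold over the other cells in iWAT.

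Macrophages carried cell cycle transcripts, as the other cells did. Mki67, the proliferation antigen, was at 176 CPM (156 to 197) in iWAT and 186 CPM (175 to 197) in iBAT macrophages, against 91.2 and 101 CPM in the other cells, and Top2a, a topoisomerase of dividing cells, at 294 and 298. The 6 cycling and 6 replication genes tested had median log2 ratios over the other cells of 0.19 and 0.90 in iWAT and 0.21 and 0.48 in iBAT. With every cell thinned to 5000 UMIs, Mki67 was seen in 36.1% of iWAT and 46.8% of iBAT macrophages and in 25% and 29.1% of the other cells, and unthinned in 52.8% and 67.7% against 41.8% and 55.5%. Among stroma-poor macrophages Mki67 stood at 174 and 236 CPM.

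Between the depots, 108 of 3845 genes with at least 50 CPM in either macrophage sum (2.81%) were at least 4-fold higher in iWAT and 51 (1.33%) at least 4-fold higher in iBAT. Without the stroma-bearing cells the counts were 128 (3.41%) and 24 (0.639%) of 3753. In the other kept cells 47 of 3795 genes (1.24%) were higher in iWAT and 49 (1.29%) in iBAT, without the excess on the iWAT side. Beside these shares, 6 of 15 chemokines were at least 4-fold higher in iWAT macrophages and 1, Cxcl12, in iBAT. Cxcl12 was lower in macrophages than in the other cells of both depots (log2 ratio -3.23 in iWAT and -2.31 in iBAT). Among stroma-poor macrophages the chemokine counts were 6 and 0 of 14. Of the listed chemokines 14 reached 50 CPM in iWAT macrophages and 11 in iBAT, so some were compared through the iWAT side and the counts are a description. The 17 lipid-associated genes held 1 in each direction. Of the listed genes of antigen presentation, alternative activation and inflammation, 6, 5 and 5 reached 50 CPM in iWAT macrophages and 0, 2 and 1 in iBAT, so most were compared through the iWAT side and no share is read from them. For chemokines the median log2 ratio of iBAT over iWAT was -1.44 in macrophages and -0.93 in the other kept cells, beside 0.09 and 0.06 over all genes tested.

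The 10 genes with the highest ratio of iWAT over iBAT were Ccl24, Xist, Spint1, Ifitm1, Ppbp, Clu, Arg1, Jaml, F13a1 and Mmp9. Clu, the chaperone clusterin, stood at 247 CPM (224 to 272) in iWAT and 0.510 CPM (0.105 to 1.49) in iBAT macrophages, and the other cells differed in the same direction at 472 and 2.68 CPM. Spint1, a protease inhibitor, was at 214 and 0.340 CPM, and Jaml, an adhesion molecule of leukocytes, at 70.8 and 0.170. Leaving out the stroma-bearing cells replaced Ifitm1 with Asb2 and kept the other 9.

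**Figure D3:**
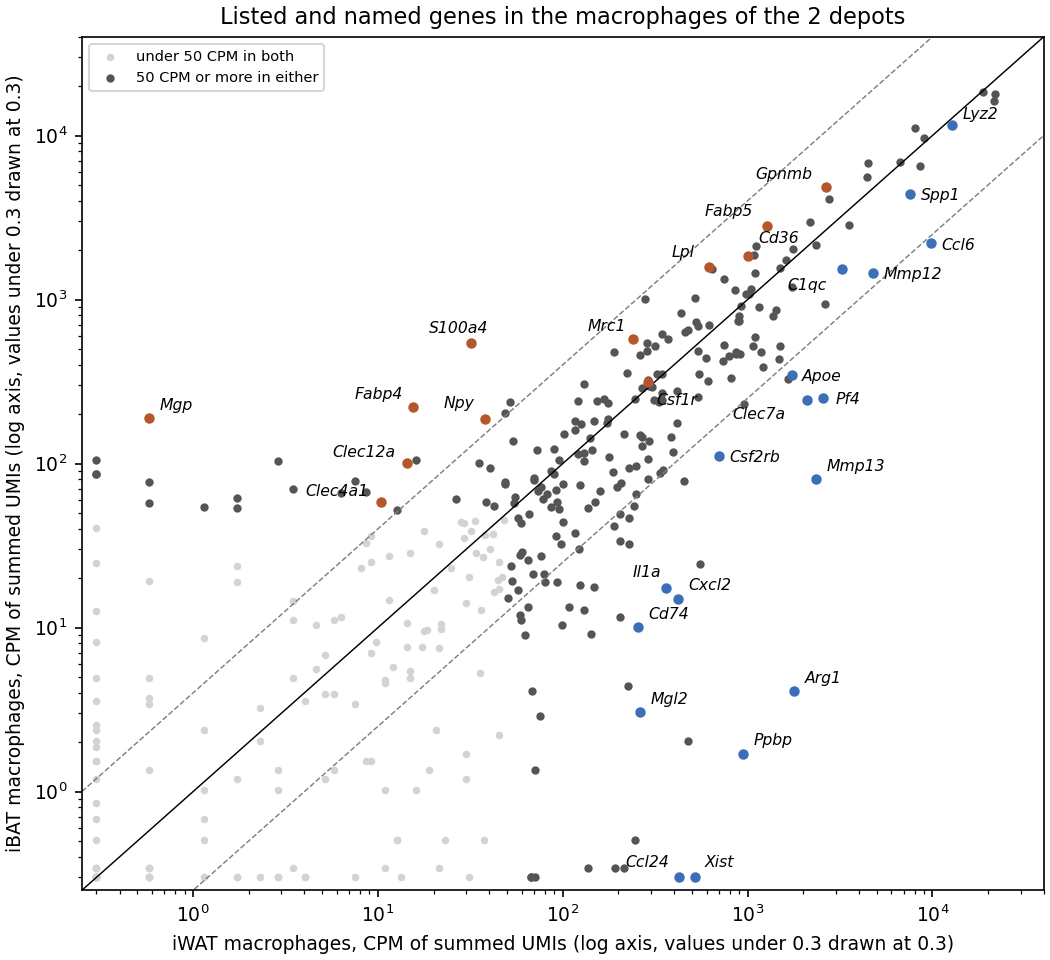
Each point is 1 gene that was listed, named by rule or added by hand, such as Mmp13 and Npy, picked after their values were seen. The log axes give its CPM of summed UMIs in iWAT macrophages and in iBAT macrophages, with a solid line at equal levels and dashed lines at 4-fold. Arg1, Ccl24, Ppbp, Mgl2, Cd74, Cxcl2 and Mmp13 lie under the lower dashed line, Lyz2 and Csf1r lie near the solid line, and S100a4, Fabp4, Mgp, Clec12a and Npy lie above it.

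The 10 genes with the highest ratio of iBAT over iWAT were Mgp, Saa3, Akr1c18, Fam177a2, Actc1, Ddx3y, H19, Ccn5, Efemp1 and Mylpf, and single cells carried several of them. In iBAT, 1 cell gave 94.2% of the Saa3 UMIs, 84.5% of the Mylpf UMIs, 58.1% of the Actc1 UMIs and 57.9% of the H19 UMIs, each counted for its own leading cell. Mgp, the matrix Gla protein of stromal cells, stood at 0.576 CPM (0.0146 to 3.21) in iWAT and 188 CPM (177 to 199.7) in iBAT macrophages, and at 51.3 CPM in the stroma-poor iBAT macrophages. Among stroma-poor macrophages the 10 were Mgp, Fam177a2, Ddx3y, Actc1, Srp54c, Fabp4, Tmem171, S100a4, St3gal5 and Clec12a. Clec12a, an inhibitory lectin of myeloid cells, was at 14.4 CPM (9.32 to 21.3) and 101 CPM (92.9 to 109), 7.01-fold (4.70 to 10.9) higher in iBAT. S100a4, a calcium-binding protein, was at 31.7 CPM (23.9 to 41.2) and 542 CPM (523 to 561), but the other cells showed the same direction at 62.0 and 1092 CPM. Npy, which encodes neuropeptide Y and was picked after its values were seen, stood at 38.0 CPM (29.4 to 48.4) in iWAT and 188 CPM (177 to 199) in iBAT, against 0.686 and 0.755 CPM in the other cells. Fam177a2 and Srp54c have close copies in the genome, so their reads may have been split.

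Macrophages of 1 depot were not alike among themselves. With the stroma-poor cells thinned to 5000 UMIs, Gpnmb ranged from 0 to 93 UMIs per cell in iWAT (median 7) and from 0 to 133 in iBAT (median 20). Spearman correlations across these cells are given as a description, over 134 iWAT and 168 iBAT cells that share 1 library per depot, and the gene pairs were chosen after the data were seen. Gpnmb went with Fabp5 (rho 0.65 in iWAT and 0.72 in iBAT), with Psap (0.72 and 0.79), with Ctsb (0.71 and 0.69) and with Lgals3, a galectin of phagosomes (0.56 and 0.70). Other pairs differed between the depots, Trem2 at 0.43 and 0.09 (0.45 and 0.23 over all 144 and 235 macrophages), Spp1 at 0.49 and -0.01, Lpl at -0.11 and 0.48 and Mmp12 at 0.27 and 0.65. Total UMIs before thinning went with Gpnmb at 0.24 and 0.34 (0.13 and 0.04 over all macrophages), and the part of depth in these values was not tested.

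The chemokine Ccl12 went with Ccl2 (0.52 in iWAT and 0.51 in iBAT) and with Ccl7 (0.57 and 0.48), its neighbours in the chemokine cluster on chromosome 11, and against Clec7a (-0.37 and -0.52). Its relation to Gpnmb was near 0 in iWAT (-0.04) and negative in iBAT (-0.47), and over all macrophages it was -0.02 and -0.30. Splitting the iBAT cells into tertiles by Gpnmb, the mean Ccl12 count was 8.20 UMIs in the lowest, 5.46 in the middle and 1.91 in the highest tertile of 56 cells each, while Fabp5 went from 5.11 through 12.6 to 31.0. In iWAT the Ccl12 means were 7.16, 7.40 and 8.24 and those of Fabp5 1.43, 4.38 and 13.4.

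**Figure D4:**
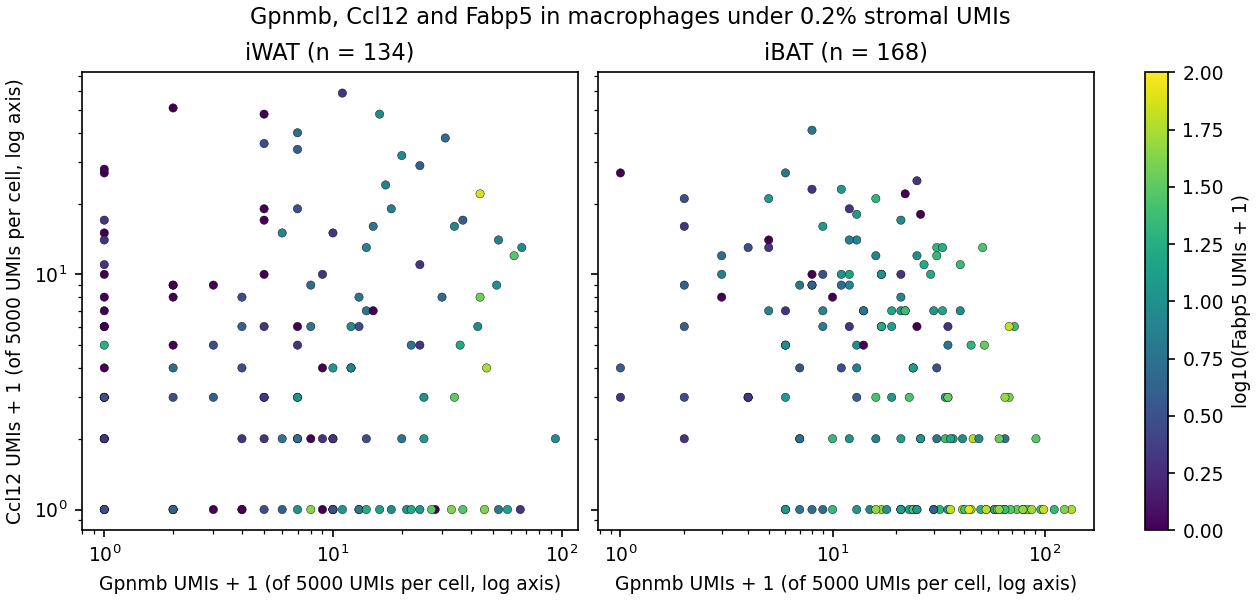
Each point is 1 stroma-poor macrophage thinned to 5000 UMIs, with Gpnmb UMIs plus 1 and Ccl12 UMIs plus 1 on log axes and colour for log10 of Fabp5 UMIs plus 1, iWAT left (134 cells) and iBAT right (168 cells). In iBAT the cells with most Gpnmb hold few or no Ccl12 UMIs and most Fabp5, and in iWAT the 2 genes show little relation (rho -0.04).

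Cycling transcripts were fewer in the Gpnmb-high cells. At least 3 UMIs of the 6 cycling genes were seen in 22 of 44 iWAT cells (50%) of the lowest tertile by Gpnmb, 24 of 45 (53.3%) of the middle and 15 of 45 (33.3%) of the highest. The iBAT counts were 39, 37 and 19 of 56 (69.6%, 66.1% and 33.9%). The correlation of Gpnmb with the summed cycling genes was -0.29 in iWAT and -0.40 in iBAT. These counts are parts of a fixed total of UMIs, and the part of that in the negative values was not tested.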

How the data were processed

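UMI counts per gene and cell from 2 libraries were used as the authors deposited them, unnormalized, with barcodes already called as cells. Reads were aligned and annotated by the authors on a hosted data pipeline, and the submitters' notes name mm39 and Seurat 5.0.0. The aligner and gene annotation are not given in the sources used here. Cells with over 200 and under 7500 genes and under 30% mitochondrial UMIs were kept, which are the study's own limits. The macrophage rule, the 43 gene lists and the motif were chosen with earlier results of these data known. UMIs were summed over the macrophages and over all other kept cells of each library and expressed as CPM, with exact Poisson intervals, exact conditional binomial intervals for ratios and Clopper-Pearson intervals for shares, all at 95%. A gene was tested, that is compared against a fixed fold of 4, when it held at least 50 CPM on either side, and no p-value was computed because each depot has 1 library. A gene at 0 UMIs was taken at a floor of 3 counts. For counts per cell, each cell was thinned to 5000 UMIs, which left out no cell. Per library, macrophage depth was 6014 to 26897 UMIs per cell in iWAT and 11143 to 51387 in iBAT.

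Genes were named by rule: the marker and rule genes, the listed genes by list, the 20 genes with the largest smaller-of-both-depots ratio over other cells at 50 CPM or more in both, the 10 genes per direction with the largest ratio between depots, and the 10 genes with most UMIs per depot. Mmp8, Mmp13 and Npy were instead picked after their values were seen. Doublets were not removed. Scrublet called some cells in iWAT but none in iBAT and was judged not to have worked, so macrophages with stromal genes were left out as an alternative instead. Promoters were read from GRCm39, because the promoter table at hand was of another build. The start used was that of the canonical GENCODE transcript, which for some genes, such as Ptprc and Spi1, lies inside the span of the gene. The scripts ran in Python 3.11.15 with numpy 2.4.6, scipy 1.17.1, pandas 2.3.3 and matplotlib 3.10.9, and the ratio and interval code was tested on simulated data. Some genes of the lists are not reported here.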

Additional observations from a re-analysis of the deposited data

Results flagged for a closer look

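In iWAT, 18 kept cells passed the C1q limit and the Tyrobp or Ptprc limit but not the collagen limit. They held 1% or more of their UMIs in Col1a1 and Col1a2 and stood among the other kept cells in the comparisons above. They held a median of 36.5 C1q UMIs (3 to 92) at a median of 17630.5 UMIs per cell, and their collagen share ran from 1.04% to 6.19%. The corresponding count in iBAT was 7, with a median of 21 C1q UMIs (4 to 73), 26029 UMIs per cell and a collagen share of 1.03% to 1.71%. Any C1q UMI was seen in 1.00% of iWAT and 1.72% of iBAT cells outside the macrophages, these cells included. They were listed because they carry a macrophage signal outside the cells counted as macrophages.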

How the results depend on the processing

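The macrophage share stayed within its counting interval under every alternative run but one: in iWAT it ran from 0.451% to 0.545%, and in iBAT it fell to 0.595% when cells with stromal genes were left out, an alternative added after seeing the data. Counts of genes at least 4-fold higher in macrophages moved with the expression filter and the fold. In iWAT the count of 421 became 778 at 10 CPM, 155 at 200 CPM, 13592 with no filter and 725 at a fold of 2. The iBAT count of 300 became 575, 109, 12033 and 520. Genes higher in iBAT than iWAT macrophages, 51 in the report, numbered 165, 5, 365 and 191 in the same order and 24 without cells with stromal genes. Genes higher in iWAT, 108 in the report, numbered 244, 43, 3216 and 332.

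The share of higher genes among those past 4-fold over the other cells in iBAT was 62.1%, against 74.3% with median-of-ratios scaling, 50% at a collagen limit of 0.5% and 44.6% without cells with stromal genes. Between depots the share higher in iBAT was 32.1%, against 15.8% without those cells and 20.9% with the profile of the other cells subtracted. Of single-gene ratios, 1350 values within depots and 883 between depots moved by less than their counting interval, 869 and 351 moved by more, and 1 in each that was past 4-fold turned around. Counting also ratios under 4-fold, 10 of 240 genes in iWAT, 13 of 204 in iBAT and 29 of 247 between depots changed sign under some alternative, among them Krt8, Krt18, Clu and Epcam in iWAT and Csf1, Fgfr1, Col1a1 and Col3a1 between depots. Lcn2 in iWAT went from -2.37 to 0.92 (log2) against only other cells with 1% or more collagen, which leaves low-collagen cells out of the comparator, and Pdgfra went from 2.05 to -0.16 (log2 of iBAT over iWAT) after the subtraction. The cause of these changes was not tested.

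No paired analysis was possible because each depot has 1 library and no replicate number, and leaving out a replicate was not run for the same reason. The planned removal of doublets by Scrublet was not run. Macrophages were few and shallower in iWAT, so genes under about 10 CPM rest on few UMIs there.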
